A study of Mus musculus with 12 samples.

Results

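Expression of 10 genes for basal and mesenchymal transcription regulators was examined in sorted mouse mammary cells. The genes were Trp63, Snai1, Snai2, Twist1, Twist2, Zeb1, Zeb2, Id4, Myocd and Mkl1, which the array annotation lists under its current symbol Mrtfa. They were chosen by name and not by a threshold on measured values, but with earlier results of these data known. All 10 were found among the 19938 genes with an own symbol on the arrays, each through 1 probeset. RNA was measured on 12 Affymetrix gene arrays in 4 groups of 3. Conditionally Wnt4-deleted females (MMTV::Cre+.Wnt4fl/fl.mT/mG) gave a CD24 low group (arrays 3, 11 and 15 by the number in their titles) and a CD24 high group (arrays 4, 12 and 16). Control females (MMTV::Cre+.Wnt4wt/wt.mT/mG), called WT here, gave a CD24 low group (arrays 1, 9 and 13) and a CD24 high group (arrays 2, 10 and 14). All mice were females aged 10 to 14 weeks, and the labels name no drug. Both genotypes carried the Cre transgene, driven by the MMTV promoter of a mammary tumour virus (line A), and the mT/mG reporter, in which Cre turns a cell and its progeny green. Lineage-depleted green cells were sorted by the surface protein CD24. The labels treat the low fraction as myoepithelial and the high fraction as luminal. Whether the cells came from intact glands or from grafts was not settled by the labels, which use both words.

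Myoepithelial cells form the outer, contractile layer of the mammary duct and lie on the basement membrane around the luminal cells. Trp63 codes for p63, the regulator that basal cells of stratified and glandular epithelia depend on. Snai1, Snai2, Zeb1 and Zeb2 are zinc finger repressors that bind E2-boxes, short elements in the promoters of epithelial genes such as that of the adhesion protein E-cadherin. Twist1 and Twist2 are helix-loop-helix factors that act in mesenchymal cells, and these 6 genes are best known as drivers of the epithelial to mesenchymal transition. Id4 codes for a helix-loop-helix protein that lacks a DNA-binding region, and it marks basal cells of the mouse mammary gland. Myocd and Mrtfa code for coactivators of SRF, the serum response factor, on contractile genes of smooth muscle.

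Values below are RMA values on the log2 scale, so a difference of 1 is a doubling of signal, and levels of different genes are not compared because each probeset has its own brightness. Array medians ran from 5.64 to 5.82. The targeted gene Wnt4 was at 6.11, 6.46 and 6.78 in Wnt4-deleted CD24 high cells and at 7.42, 7.92 and 7.62 in WT CD24 high cells, the fraction that holds the hormone receptor positive cells known to make this ligand. The groups did not overlap, and the log2 change was -1.20 (SE 0.19, limma, adjusted p = 0.416 over all genes). In a second Wnt4 probeset array 16 was at 6.74 and thus above the 6.37 to 6.57 of WT CD24 high cells, and whether the probes lie in the deleted part was not analysed here. The lineage markers followed the sort. The mean of 12 myoepithelial markers ran from 10.57 to 11.23 in the 6 CD24 low arrays, against 6.21 to 7.20 in the 6 CD24 high arrays, and the mean of 12 measured luminal markers from 7.72 to 8.17, against 10.31 to 10.75. Markers of cells that a pure myoepithelial sort would lack were also present in CD24 low arrays. The mean of 12 endothelial markers ran from 6.40 to 9.10 there, against 5.12 to 6.38 in CD24 high arrays, and that of 11 measured fibroblast markers from 5.73 to 8.40, against 5.24 to 5.72. Pericyte and vascular muscle markers (10 of 10 measured) ran from 5.74 to 7.30, against 5.13 to 5.65, and immune markers (9 of 10) from 5.17 to 6.65, against 4.56 to 4.87. Schwann cell markers (6 of 8 measured) went the other way, from 5.44 to 5.75 in CD24 low against 6.23 to 6.43 in CD24 high arrays. Adipocyte markers (7 of 8) overlapped, at 5.24 to 6.36 against 4.99 to 5.56. Of the 12 endothelial markers, 7 passed as higher in CD24 low cells in Wnt4-deleted and 5 in WT cells. Of the 11 fibroblast markers 1 and 0 did. Arrays 3 and 1 were the lowest of the CD24 low arrays for both lists, at 6.40 and 6.501 for endothelial and 5.73 and 5.73 for fibroblast markers. Array 3 and array 1 in turn had the highest skeletal muscle marker means, 7.73 and 6.82, against 5.18 to 5.64 in the other 10 arrays. By title number the arrays form 3 sets (1 to 4, 9 to 12, 13 to 16), and every set has an array from each of the 4 groups. The series text speaks of independent experiments but ties no array to one, so the p-values reflect only how these arrays vary. Precision is limited by the number of arrays.

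The element that Snail and Zeb proteins bind can be shown in the promoters of these genes and of genes they are known to repress. The 250 bases before the transcription start were taken from RefSeq (build GRCm38.p6, the outermost start where a gene had several) and searched on both strands for the E2-box, CAGGTG or its reverse complement CACCTG. Of all 27025 such windows, 17.1% held at least 1 E2-box. Windows were on hand for 6 of the 10 regulators (Snai1, Twist1, Twist2, Zeb2, Id4 and Mrtfa), and 1 of the 6, that of Snai1, held an E2-box, with its first base at -126 relative to the start. None of the 6 held the CArG box of SRF, which 1.4% of all windows held. This box was searched only in its exact form, CC, then 6 letters that are A or T, then GG. Snai1 and Id4 are shown as a member with and a member without an E2-box. Crb3, Epcam and Elf5 are shown as epithelial genes with more than 1. Crb3 codes for a polarity protein of the apical membrane, Epcam for an adhesion protein of epithelial cells, and Elf5 for an Ets factor of luminal progenitors that is known to repress Snai2. Each window is written 5′ to 3′ on the strand of its gene, with E2-boxes in capitals. The windows lie at chr2:167537945-167538194 (plus strand, Snai1), chr13:48260866-48261115 (plus, Id4), chr17:57061951-57062200 (plus, Crb3), chr17:87635729-87635978 (plus, Epcam) and chr2:103411848-103412097 (plus, Elf5).
Snai1: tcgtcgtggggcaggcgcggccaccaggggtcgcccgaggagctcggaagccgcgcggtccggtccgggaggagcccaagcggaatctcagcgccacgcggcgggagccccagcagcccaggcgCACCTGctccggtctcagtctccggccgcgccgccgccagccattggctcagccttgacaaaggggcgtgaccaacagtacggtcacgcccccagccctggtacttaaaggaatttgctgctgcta
Id4: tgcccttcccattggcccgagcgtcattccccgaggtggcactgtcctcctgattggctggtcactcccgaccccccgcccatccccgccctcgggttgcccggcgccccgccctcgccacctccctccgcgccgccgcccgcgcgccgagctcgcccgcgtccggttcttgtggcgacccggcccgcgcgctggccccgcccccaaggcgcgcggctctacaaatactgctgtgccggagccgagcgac
Crb3: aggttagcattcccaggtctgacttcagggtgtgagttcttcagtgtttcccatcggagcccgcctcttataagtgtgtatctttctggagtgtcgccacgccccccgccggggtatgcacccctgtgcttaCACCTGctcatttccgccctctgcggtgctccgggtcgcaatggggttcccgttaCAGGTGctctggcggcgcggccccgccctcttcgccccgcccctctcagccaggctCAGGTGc
Epcam: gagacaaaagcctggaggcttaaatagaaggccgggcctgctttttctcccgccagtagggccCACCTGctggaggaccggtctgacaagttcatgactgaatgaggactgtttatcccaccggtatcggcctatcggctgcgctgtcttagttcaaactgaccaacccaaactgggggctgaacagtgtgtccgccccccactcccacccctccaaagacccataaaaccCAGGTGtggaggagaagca
Elf5: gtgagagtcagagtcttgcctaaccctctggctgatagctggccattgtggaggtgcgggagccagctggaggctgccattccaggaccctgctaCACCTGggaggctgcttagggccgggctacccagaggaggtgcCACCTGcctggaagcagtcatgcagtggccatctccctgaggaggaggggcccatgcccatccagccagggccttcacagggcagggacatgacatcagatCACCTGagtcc
The boxes of Crb3 begin at -118, -63 and -7, those of Epcam at -187 and -19, and those of Elf5 at -155, -112 and -11. A match shows that the letters are there and does not show binding in these cells.

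The first comparison asked how the regulators differ between CD24 low and CD24 high cells. Trp63, Snai2 and Id4 were high in every CD24 low array and low in every CD24 high array of both genotypes, by 7.99-fold or more. Mrtfa was higher in CD24 low cells of both genotypes by a smaller step, and the remaining 6 genes passed the test in 1 genotype (Twist1 in WT, Zeb1 in Wnt4-deleted cells) or in neither. In Wnt4-deleted cells 5 of the 10 members passed an adjusted p of 0.05, all higher in CD24 low cells, where 16.4% of all 19938 genes passed and 8.22% passed with higher values in CD24 low cells. In WT cells 5 of 10 passed, again all higher, against 16.1% of all genes in either direction and 8.21% higher. The 4 members that passed in both genotypes were Trp63, Snai2, Id4 and Mrtfa. Values of CD24 low and CD24 high arrays did not overlap for 7 of 10 members in Wnt4-deleted cells (29.3% of all genes) and for 8 of 10 in WT cells (32.8% of all genes). The median change over the 10 members was 1.39 in Wnt4-deleted and 1.29 in WT cells, and over all genes -0.01 and -0.02. In bulk RNA, fewer cells of a type and less RNA per cell cannot be told apart.

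**Figure D1:**
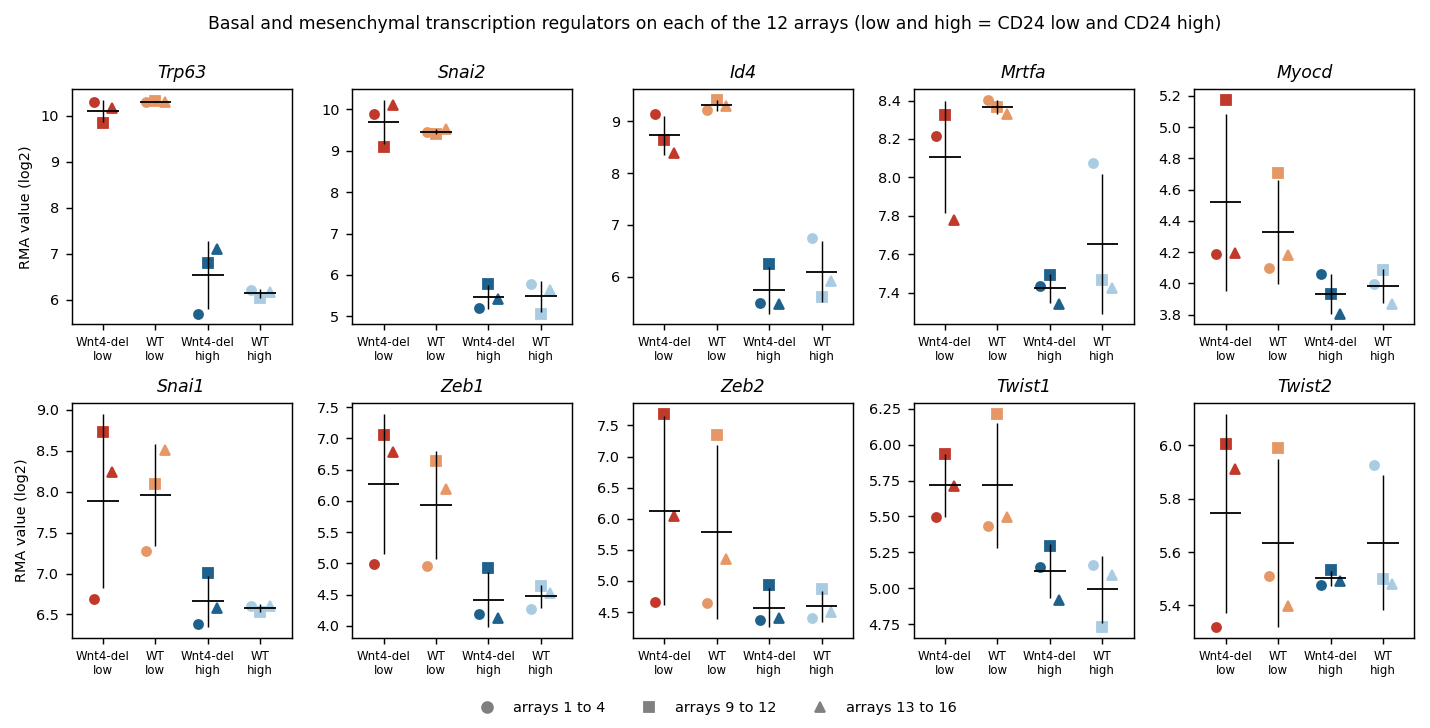
RMA value (log2, vertical axis) of each of the 10 regulators on every array, by group, with symbols for the title number sets and lines for the mean and SD (n = 3). Trp63, Snai2 and Id4 span 0.49, 1.02 and 1.02 log2 units in CD24 low cells. Snai1, Zeb1 and Zeb2 spread by more than 2 log2 units there, with arrays 1 and 3 (circles) lowest.

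Trp63 was at 10.31, 9.84 and 10.17 in Wnt4-deleted CD24 low cells, against 5.70, 6.81 and 7.10 in Wnt4-deleted CD24 high cells. In WT cells it was at 10.30, 10.33 and 10.30 in the CD24 low arrays, against 6.21, 6.04 and 6.17 in the CD24 high arrays. The CD24 low values of WT cells were nearly identical (SD 0.015, n = 3), the closest of any member, and no CD24 high array came near them. The change was 3.57 (SE 0.29, 11.9-fold, limma, adjusted p = 9.6e-06) in Wnt4-deleted and 4.17 (SE 0.29, 18.003-fold, adjusted p = 3.0e-06) in WT cells. Within the 3 sets of arrays it was 4.61, 3.03 and 3.07 in Wnt4-deleted cells and 4.09, 4.29 and 4.13 in WT cells. Among the CD24 high arrays Trp63 did not follow the myoepithelial markers, as array 4 had the highest mean of these markers (7.20, against 6.21 to 6.60 in the other 5) and the lowest Trp63 value, 5.70.

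Snai2, the Snail family gene of mammary basal cells also called Slug, was at 9.88, 9.09 and 10.12 in Wnt4-deleted CD24 low cells and at 5.20, 5.79 and 5.42 in Wnt4-deleted CD24 high cells. In WT cells the values were 9.45, 9.40 and 9.52 in CD24 low and 5.78, 5.06 and 5.62 in CD24 high arrays. All 6 CD24 low arrays were far above all 6 CD24 high arrays. The change was 4.23 (SE 0.26, 18.7-fold, adjusted p = 1.6e-06) in Wnt4-deleted and 3.97 (SE 0.26, 15.7-fold, adjusted p = 2.6e-06) in WT cells. Its highest value, 10.12, fell on array 15 and its lowest CD24 low value, 9.09, on array 11, both Wnt4-deleted.

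Id4 was at 9.15, 8.64 and 8.40 in Wnt4-deleted CD24 low cells, against 5.48, 6.25 and 5.46 in Wnt4-deleted CD24 high cells. In WT cells it was at 9.21, 9.42 and 9.30 in CD24 low arrays, against 6.75, 5.61 and 5.91 in CD24 high arrays. The fractions were far apart in both genotypes, and within the CD24 low fraction the 3 WT values were the 3 highest. The change between fractions was 2.999 (SE 0.30, 7.99-fold, adjusted p = 5.3e-05) in Wnt4-deleted and 3.22 (SE 0.30, 9.32-fold, adjusted p = 3.3e-05) in WT cells. Trp63, Snai2 and Id4 passed the 0.05 threshold in both genotypes under each of the 27 alternative settings tried, with a highest adjusted p of 0.0087 (Id4 in Wnt4-deleted cells).

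The SRF coactivators gave smaller differences. Mrtfa, whose protein moves to the nucleus when actin filaments form, was at 8.22, 8.32 and 7.78 in Wnt4-deleted CD24 low cells and at 7.43, 7.49 and 7.34 in Wnt4-deleted CD24 high cells. In WT cells it was at 8.40, 8.37 and 8.33 in CD24 low and 8.07, 7.46 and 7.43 in CD24 high arrays. The fractions did not overlap within a genotype, but array 2 of the WT CD24 high group stood above the 2 others and above array 15 of the Wnt4-deleted CD24 low group. The change was 0.68 (SE 0.19, 1.605-fold, adjusted p = 0.0275) in Wnt4-deleted and 0.71 (SE 0.19, 1.64-fold, adjusted p = 0.0223) in WT cells. Leaving out 1 array ended the call in 5 of 12 cases in each genotype. These were arrays 3, 11, 4, 12 and 16 in Wnt4-deleted cells (adjusted p from 0.0561 to 0.102) and arrays 1, 9, 13, 10 and 14 in WT cells (adjusted p from 0.0590 to 0.0920). Without array 2 the WT change was 0.92.

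Myocd, the cardiac and smooth muscle coactivator, was dim on all arrays. It was at 4.19, 5.18 and 4.19 in Wnt4-deleted CD24 low cells, against 4.06, 3.93 and 3.81 in Wnt4-deleted CD24 high cells, and at 4.10, 4.71 and 4.18 in WT CD24 low cells, against 4.0, 4.09 and 3.87 in WT CD24 high cells. Arrays 11 and 9 stood above the other 10. The change was 0.58 (SE 0.25, adjusted p = 0.153) in Wnt4-deleted and 0.35 (SE 0.25, adjusted p = 0.459) in WT cells, and it was not called.

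Among the Snail and Zeb genes other than Snai2 the CD24 low arrays differed widely from one another. Snai1 was at 6.69, 8.73 and 8.24 in Wnt4-deleted CD24 low cells, against 6.39, 7.01 and 6.58 in Wnt4-deleted CD24 high cells. In WT cells it was at 7.28, 8.09 and 8.51 in CD24 low arrays, against 6.61, 6.53 and 6.61 in CD24 high arrays. Arrays 3 and 1 were its lowest CD24 low values, and array 3 lay below array 12 of the CD24 high fraction. The change was 1.23 (SE 0.45, 2.34-fold, adjusted p = 0.0944) in Wnt4-deleted and 1.38 (SE 0.45, 2.60-fold, adjusted p = 0.0625) in WT cells, neither called. A call appeared in Wnt4-deleted cells without array 3 (1.83, adjusted p = 0.00280) and in WT cells without array 3, 11 or 1 (adjusted p = 0.00682, 0.0360 and 0.0395). With the sets of title numbers as a fixed block Snai1 was called in both genotypes (adjusted p = 0.0332 in Wnt4-deleted and 0.0198 in WT cells). Within the sets its change was 0.30, 1.73 and 1.66 in Wnt4-deleted and 0.67, 1.56 and 1.90 in WT cells.

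Zeb1 was at 4.98, 7.05 and 6.78 in Wnt4-deleted CD24 low cells, against 4.20, 4.92 and 4.13 in Wnt4-deleted CD24 high cells. In WT cells it was at 4.96, 6.65 and 6.20 in CD24 low and 4.26, 4.63 and 4.52 in CD24 high arrays. No CD24 high array reached any CD24 low array, but arrays 3 and 1 were only just above array 12. The change was 1.86 (SE 0.53, 3.63-fold, adjusted p = 0.0340) in Wnt4-deleted cells, which passed, and 1.46 (SE 0.53, 2.76-fold, adjusted p = 0.0905) in WT cells, which did not. The difference between these changes was 0.39 (SE 0.75, adjusted p = 0.99992), so the genotypes were not shown to differ. The Wnt4-deleted call ended without array 11, 15, 4 or 16 (adjusted p = 0.125, 0.110, 0.0969 and 0.117), and a WT call appeared without array 3 or 1 (0.0210 and 0.0331) and with the fixed block (0.0133).

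Zeb2 had the widest range of any member, at 4.66, 7.69 and 6.04 in Wnt4-deleted CD24 low cells, against 4.37, 4.94 and 4.40 in Wnt4-deleted CD24 high cells. In WT cells it was at 4.65, 7.35 and 5.35 in CD24 low arrays, against 4.41, 4.87 and 4.50 in CD24 high arrays. Arrays 3 and 1 lay among the CD24 high values, and arrays 11 and 9 lay far above them. Within the sets of arrays the change was 0.28, 2.75 and 1.64 in Wnt4-deleted and 0.24, 2.48 and 0.85 in WT cells. The group difference was 1.56 (SE 0.74, adjusted p = 0.198) in Wnt4-deleted and 1.19 (SE 0.74, adjusted p = 0.363) in WT cells. Without arrays 9 to 12 it was 0.96 in Wnt4-deleted and 0.55 in WT cells, and without array 3 the Wnt4-deleted change was 2.29 and was called (adjusted p = 0.0416), as it was at 1.56 with the fixed block (0.0424).

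The Twist genes changed little. Twist1 was at 5.50, 5.94 and 5.71 in Wnt4-deleted CD24 low cells, against 5.15, 5.29 and 4.92 in Wnt4-deleted CD24 high cells, and at 5.43, 6.22 and 5.50 in WT CD24 low cells, against 5.16, 4.73 and 5.09 in WT CD24 high cells. All CD24 low arrays were above all CD24 high arrays, but by a narrow margin. The change was 0.60 (SE 0.22, adjusted p = 0.0901) in Wnt4-deleted and 0.72 (SE 0.22, 1.65-fold, adjusted p = 0.0433) in WT cells. The WT call ended when any 1 of arrays 15, 9, 13, 4, 12, 16, 2, 10 and 14 was left out (adjusted p from 0.0530 to 0.159), and without arrays 9 to 12 the WT change was 0.34. The Wnt4-deleted change was called without array 9 (adjusted p = 0.0349).

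Twist2 had the smallest changes of the 10, and its fractions overlapped in both genotypes. It was at 5.32, 6.01 and 5.91 in Wnt4-deleted CD24 low cells, against 5.48, 5.53 and 5.49 in Wnt4-deleted CD24 high cells, and at 5.51, 5.99 and 5.40 in WT CD24 low cells, against 5.93, 5.50 and 5.48 in WT CD24 high cells. The change was 0.24 (SE 0.21, 95% interval -0.22 to 0.71, adjusted p = 0.523) in Wnt4-deleted and -0.0008 (SE 0.21, -0.46 to 0.46, adjusted p = 0.999) in WT cells. A change of 1 log2 unit in RMA signal lies outside both intervals. The intervals take no account of the shrinking of differences by RMA in dim probesets, so they set no such limit on RNA.

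**Figure D2:**
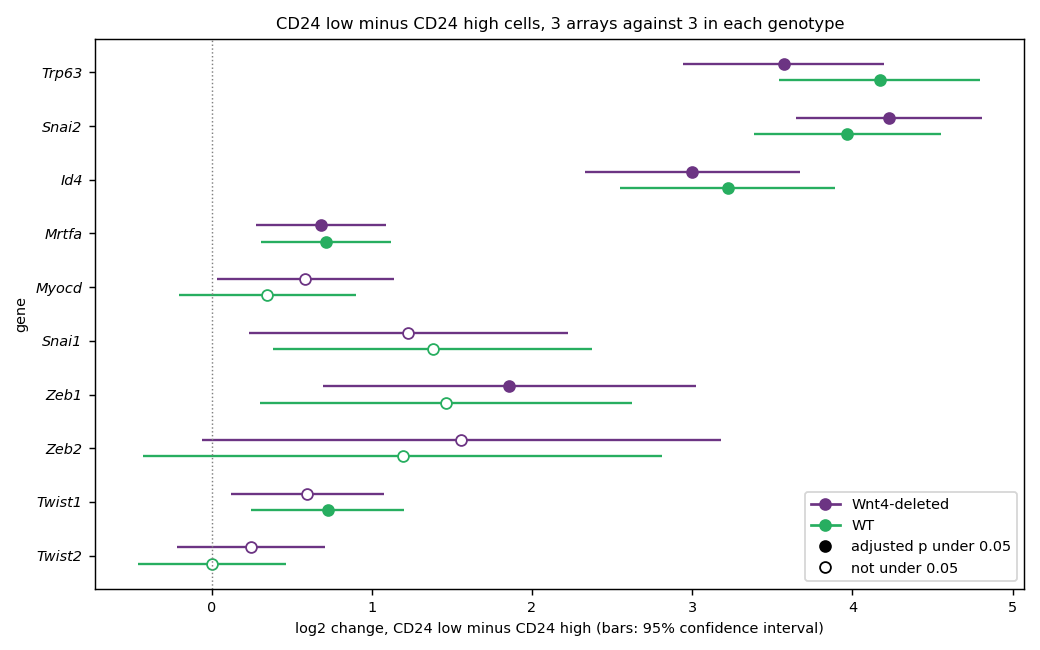
Log2 change of each regulator between CD24 low and CD24 high cells (horizontal axis), in Wnt4-deleted (purple) and WT cells (green), with 95% confidence intervals from limma (3 arrays against 3). Filled points passed an adjusted p of 0.05, and the changes of 2.999 to 4.23 for Trp63, Snai2 and Id4 stand apart from the other 7 genes.

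The members split by how they moved with markers of other cell types in the CD24 low fraction. Over the 6 CD24 low arrays, which are described here with no test, Zeb1 had a Pearson correlation of 0.937 with the endothelial marker mean and Snai1 one of 0.962. Zeb2 followed the fibroblast (0.973) and the pericyte and vascular muscle markers (0.983), Twist1 the fibroblast markers (0.978), Twist2 the immune (0.939) and fibroblast markers (0.896), and Myocd the pericyte markers (0.959). Correlations with the immune markers were also high for Zeb2 (0.946), Twist1 (0.924) and Zeb1 (0.918), so these marker lists were not separated by the 6 arrays. Trp63 (-0.602 and -0.485), Snai2 (-0.197 and -0.505) and Id4 (-0.510 and -0.138) had negative correlations with the endothelial and fibroblast means, and Mrtfa had -0.309 and 0.098. With the skeletal muscle markers, highest in arrays 3 and 1, Snai1 had -0.931 and Zeb1 -0.888, while Trp63, Snai2, Id4 and Mrtfa had 0.205 to 0.311. With the myoepithelial markers Id4 had 0.876, Mrtfa 0.779 and Trp63 0.591. Snai2 had -0.284 with them, Zeb1 had -0.781, and the remaining members were negative too. These points share arrays, and arrays 3 and 1 are at one end of most of them. Over the 6 CD24 high arrays Zeb1 (0.916) and Snai1 (0.762) also rose with the endothelial mean. Zeb2 did so with the fibroblast (0.75) and pericyte means (0.882). Twist1 had -0.543 there with the fibroblast mean, Twist2 0.154 with the immune and 0.062 with the fibroblast mean, and Myocd -0.117 with the pericyte mean. In arrays 3 and 1, where the endothelial mean was 6.40 and 6.501, Zeb1 was at 4.98 and 4.96, and in CD24 high array 12, where the endothelial mean was 6.38, it was at 4.92. Apart from the fits with covariates given next, the part of these cell types in the changes was not tested.

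**Figure D3:**
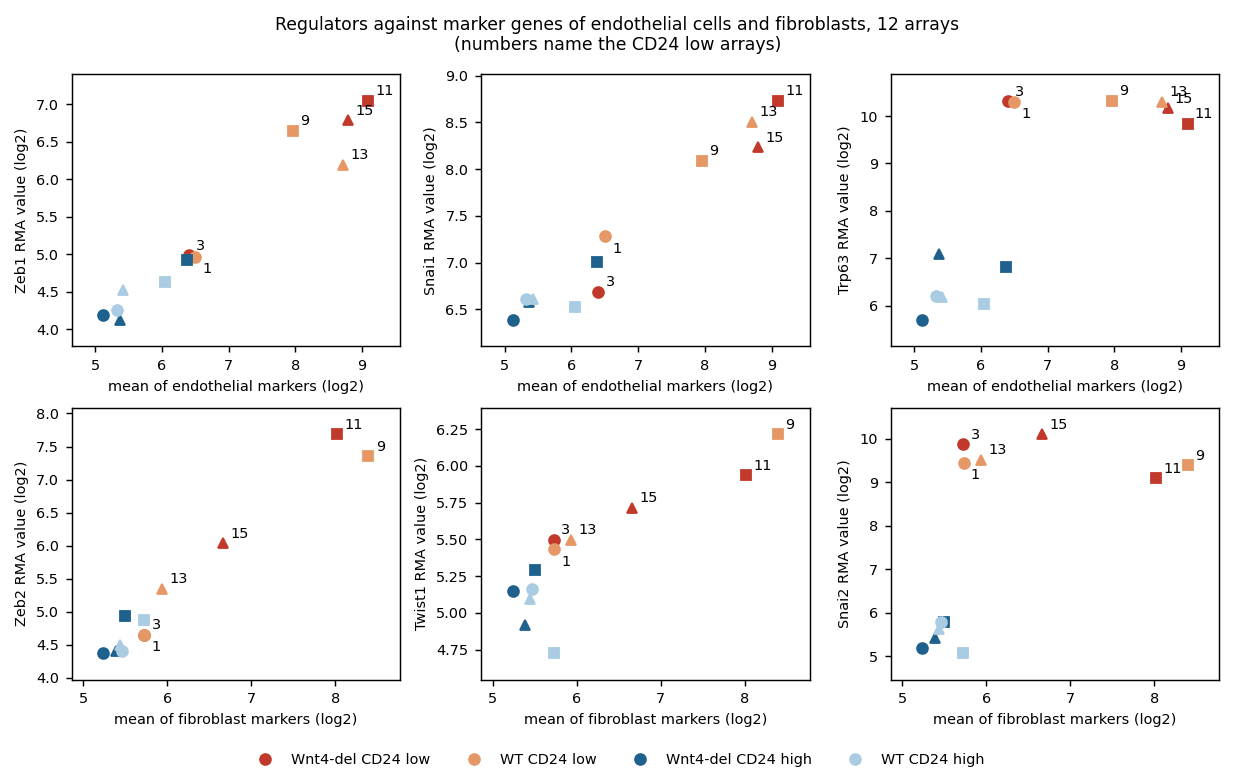
RMA values (log2) of 6 regulators against the mean of 12 endothelial markers (top) or 11 fibroblast markers (bottom) on 12 arrays, coloured by group, with CD24 low arrays named by number. In the CD24 low arrays Zeb1, Snai1, Zeb2 and Twist1 climb with the marker means, while Trp63 (9.84 to 10.33) and Snai2 (9.09 to 10.12) do not.

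Fits with the endothelial or fibroblast marker mean as a covariate, added after the data were seen, give the fraction change at equal marker level. These are extrapolations, since each CD24 low array was above each CD24 high array in the endothelial and the fibroblast mean. With the endothelial mean, the Zeb1 change was 0.14 in Wnt4-deleted and -0.01 in WT cells (adjusted p = 0.888 and 0.985), and the Snai1 change was -0.28 and 0.09 (0.599 and 0.874). With the fibroblast mean, the Zeb2 change was 0.01 and -0.05 (adjusted p = 0.989 and 0.946). The other pairings of gene and mean differed. In Wnt4-deleted cells the fibroblast mean left a Zeb1 change of 0.99 and a Snai1 change of 0.67 (adjusted p = 0.196 and 0.467). There the endothelial mean left a Zeb2 change of -0.26 (0.920). A covariate listed before these 2, the non-epithelial mean, pooled the endothelial, fibroblast, pericyte and vascular muscle, immune and skeletal muscle markers. It held no Schwann cell or adipocyte markers. With this mean Zeb2 was called as lower in CD24 low cells, by -2.06 in Wnt4-deleted and -1.64 in WT cells (adjusted p = 0.00145 and 0.00154). The Zeb2 change thus took either sign with the choice of markers. The Twist1 change in WT cells was 0.51 with the endothelial and 0.45 with the fibroblast mean, and neither was called (adjusted p = 0.322 and 0.133). Mrtfa lost its call with either covariate while its change stayed about as large, at 0.80 and 0.65 in Wnt4-deleted and 0.81 and 0.69 in WT cells with the endothelial and the fibroblast mean (adjusted p from 0.0624 to 0.106). Under the endothelial covariate Trp63 kept changes of 3.62 and 4.21, Snai2 of 4.37 and 4.09, and Id4 of 3.21 and 3.40 in Wnt4-deleted and WT cells, all called. Changes of these 3 genes were no smaller in these fits than without the covariate.

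Across all 12 arrays Trp63, Snai2 and Id4 had pairwise correlations of 0.958 to 0.983, as a description in which the 2 fractions set most of the spread. Snai1 was closest among the members to Zeb1 (0.958), Zeb2 to Myocd (0.922) and Mrtfa to Id4 (0.925). Twist2 had 0.213 with Trp63 and 0.727 with Zeb2. The genes most like each member, among 8192 that spanned at least 1 log2 unit, were taken by the same measure. For Trp63 these were Ntrk3 (0.988), Drp2, Pltp, Runx1 and Apoe, for Snai2 Drp2 (0.995), Slit2, Abcb1b, Slc43a3 and Clmp, and for Id4 Zfp354c (0.986), Jph2, the hemidesmosome collagen gene Col17a1, Ccnd2 and Pcsk5. For Snai1 they were Tie1 (0.984), an endothelial receptor, Arap3, Robo4, Sema6b and Tmem204, and for Zeb1 Mustn1 (0.990), Sparcl1, Cped1, Meox2 and Nr2f2. For Zeb2 they were Dpt (0.985), a matrix gene of fibroblasts, Rgs1, Ccl19, Map3k7cl and Ifi207, and for Twist1 Mamdc2 (0.944), Il16, Cd248, Fxyd1 and Slc4a4. Twist2 was closest to C3ar1 (0.926), Tas2r135, Mrgprf, Adap2 and Cxcl13, Myocd to Npy1r (0.968), Pcdh19, Naalad2, Ddr2 and Inpp4b, and Mrtfa to Ski (0.976), Gramd1a, Numbl, Aldh1l2 and Hdac4.

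Relatives and partners of the members moved less. Of 12 measured, 3 passed in each genotype, all higher in CD24 low cells, where 16.4% of all genes in Wnt4-deleted and 16.1% in WT cells passed in either direction. Tcf4, a helix-loop-helix partner of Id and Twist proteins, was higher by 1.21 (adjusted p = 0.0134) in Wnt4-deleted and by 0.93 (0.0473) in WT cells, and Id2 by 1.1 (0.00814) in Wnt4-deleted and 0.79 (0.0438) in WT cells. Id1 passed in Wnt4-deleted cells alone (1.63, adjusted p = 0.0233, against 1.13, adjusted p = 0.109 in WT cells), and the p63 relative Trp73 in WT cells alone (0.30, adjusted p = 0.257 in Wnt4-deleted cells, against 0.60, adjusted p = 0.0240). The test of the difference between genotypes called neither gene. Arrays 3 and 1 were the lowest CD24 low arrays for Tcf4 (8.67 and 8.87), Id2 (8.10 and 8.33) and Id1 (7.12 and 6.78). These 2 arrays also had the lowest endothelial and fibroblast marker means of that fraction. The part of such cells in the changes of Tcf4, Id2 and Id1 was not tested. In WT cells Id3 was at 0.51 (adjusted p = 0.556), Snai3 at -0.20 (0.552), the second MRTF gene Mrtfb at -0.09 (0.903) and SRF itself, the DNA-binding partner of Myocd and Mrtfa, at -0.12 (0.856). The E proteins Tcf3 and Tcf12 were at 0.16 (0.773) and -0.21 (0.322), and the Scratch genes Scrt1 and Scrt2 at 0.04 (0.911) and -0.04 (0.910). A dimmer Mrtfb probeset was at 7.00, 7.38 and 7.47 in WT CD24 low and 7.70, 7.96 and 7.79 in WT CD24 high arrays. The WT fractions overlapped in a further Mrtfb probeset, and neither of these probesets was tested by itself.

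Genes known to lie under these regulators also differed between the fractions. Some of them belong to the myoepithelial marker list as well. These are Krt5 and Krt14 among p63 targets, and Acta2, Tagln, Cnn1, Myh11, Myl9 and Mylk among smooth muscle genes. Des of the smooth muscle genes is also in the pericyte and vascular muscle list. Whether the regulators set these differences was not tested. Of all genes, 8.22% passed as higher in CD24 low Wnt4-deleted cells and 8.21% in WT cells. Of 18 measured p63 target genes, 17 passed as higher in CD24 low Wnt4-deleted cells and 15 in WT cells, and none as lower (median change 1.49 and 1.92). Keratin genes of the basal layer led in WT cells, Krt5 with 5.87 (SE 0.21, adjusted p = 6.8e-08) and Krt14 with 4.54 (SE 0.26), followed by Col17a1 with 3.80 (SE 0.33) and the Notch ligand gene Jag2 with 3.33 (SE 0.32). The desmosome genes Dsc3 (0.88, adjusted p = 0.0537) and Dsg3 (0.68, adjusted p = 0.145) and the linker gene Dst (0.68, adjusted p = 0.259) did not pass there. Of 20 smooth muscle genes known as targets of SRF, 18 passed as higher in each genotype (median 2.92 in Wnt4-deleted and 2.87 in WT cells). Cnn1 (5.97, SE 0.46), Myh11 (5.61, SE 0.29), Myl9 (5.41, SE 0.31) and Acta2 (5.22, SE 0.49), genes of calponin, myosin and actin, led in WT cells, while Vcl was at 0.52 (adjusted p = 0.173) and Ldb3 at -0.27 (adjusted p = 0.448). Myocd itself was not called and Mrtfa changed by 0.71 in the same cells.

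Of 19 measured epithelial genes described as repressed by Snail, Zeb or Twist proteins, 17 passed as lower in CD24 low cells and 1 as higher in each genotype (median change -2.08 in Wnt4-deleted and -2.11 in WT cells). Of all genes, 16.4% in Wnt4-deleted and 16.1% in WT cells passed in either direction. Krt8, Krt18, Krt19, Cldn3, Cldn4, Cldn7 and Epcam of this list also belong to the luminal marker list, as does the regulator Elf5. The tight junction genes Marveld2 (-3.21, SE 0.20), Cldn7 (-3.17, SE 0.35), Ocln (-3.01, SE 0.19) and Cldn4 (-2.94, SE 0.20) led in WT cells. Cdh1, the gene of E-cadherin, was at 9.87 and 11.44 in Wnt4-deleted CD24 low and CD24 high cells and at 10.25 and 11.52 in WT CD24 low and CD24 high cells, a change of -1.57 (SE 0.35, adjusted p = 0.00966) and -1.27 (SE 0.35, adjusted p = 0.0286). Dsp, which codes for the desmosome protein desmoplakin, went the other way (1.08, SE 0.25 in Wnt4-deleted and 0.997, SE 0.25 in WT cells). Of 14 epithelial regulators, a list that also holds Cdh1, 9 passed as lower in Wnt4-deleted cells and 8 in WT cells, led in WT cells by Ehf (-4.22, SE 0.33), Elf5 (-3.97, SE 0.33), Grhl1 (-2.75, SE 0.25) and Rab25 (-2.16, SE 0.51). Klf4 (0.32, adjusted p = 0.262) and Klf5 (-0.11, adjusted p = 0.801) did not pass. Of 19 measured mesenchymal genes, 10 passed as higher in Wnt4-deleted and 12 in WT cells, among them Mmp2 (4.596, SE 0.23), Sparc (4.47, SE 0.41), Vim (3.63, SE 0.35) and Fn1 (2.55, SE 0.53) in WT cells. The collagen genes Col1a1, Col1a2 and Col3a1, which also sit in the fibroblast list, were at 0.94, 1.24 and 1.002 in WT cells and did not pass (adjusted p from 0.307 to 0.311). Pdgfra and Fap of the mesenchymal genes sit in the fibroblast list as well, and Pdgfrb in the pericyte and vascular muscle list. Both fibroblast and endothelial markers moved with this list, and their part in it was not tested.

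**Figure D4:**
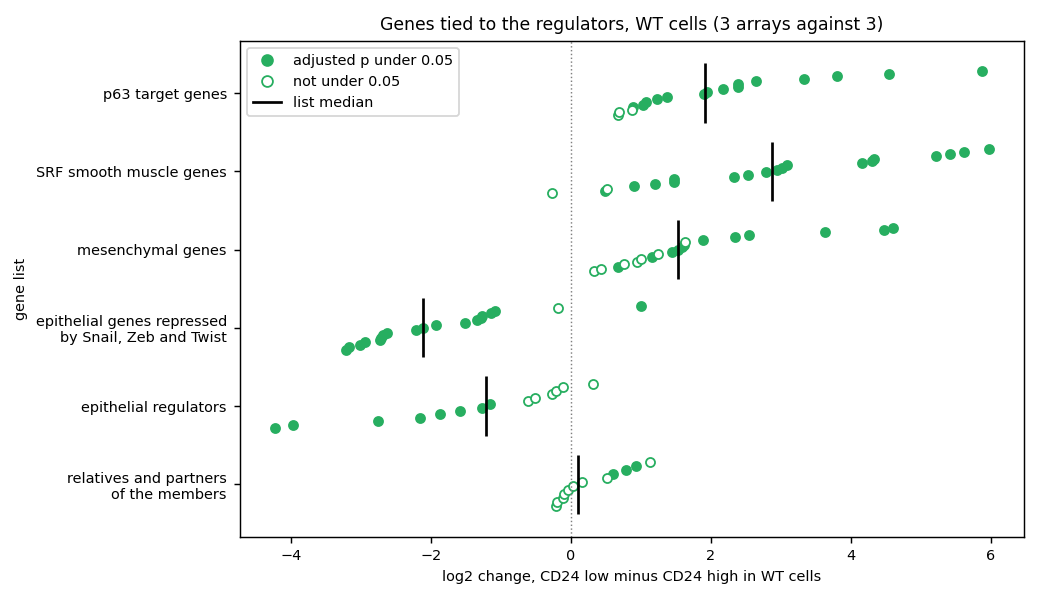
Log2 change between CD24 low and CD24 high WT cells (horizontal axis, 3 arrays against 3) of each measured gene in 6 lists tied to the regulators. Filled points passed an adjusted p of 0.05 and black lines are list medians, 1.92 for p63 targets, 2.87 for smooth muscle genes and -2.11 for epithelial genes.

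E2-boxes were common before the starts of the epithelial genes. Of the 14 epithelial genes with a window, 8 held at least 1 E2-box (57.1%), namely Epcam, Cldn4, Crb3, Krt8, Krt18, Muc1, Tjp3 and Patj, and 3 of them (Epcam, Crb3 and Muc1) held 2 or more. Of the 7 epithelial regulators with a window, 4 held one (Grhl3, Elf3, Elf5 and Rab25). The share was 17.1% over all windows, 3 of 11 for p63 targets, 2 of 17 for smooth muscle genes and 0 of 9 for mesenchymal genes. Such genes were in part described as targets because of these boxes, so the shares are a description of the lists. With the windows of Crb3, Epcam and Elf5 printed above go changes in WT cells of -1.29 (SE 0.24), -1.09 (SE 0.17) and -3.97 (SE 0.33). Patj, with a box at -19, was at -0.18 (adjusted p = 0.361), and Marveld2, which led the list, had none in its window. A CArG box in its exact form stood in 3 of 17 smooth muscle windows (Myl9, Vcl and Ldb3), 2 of which belong to the genes of this list that did not pass. Boxes that deviate from this form, or lie outside the window, were not counted.

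The second comparison asked what deletion of Wnt4 did to the regulators in each fraction. In CD24 low cells 0 of 10 members passed in limma, and 0 had an unadjusted p under 0.05, where 0.00502% of all genes (1 gene) passed and 610 had an unadjusted p under 0.05. In CD24 high cells 0 of 10 passed and 0 had an unadjusted p under 0.05, again with 0.00502% of all genes passing (1 gene) and 396 under an unadjusted 0.05. Adjusted p-values of the members were at least 0.99982 in both fractions. The median change of the members was 0.06 in the CD24 low and -0.03 in the CD24 high fraction, and that of all genes -0.02 and -0.03.

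In CD24 low cells the Wnt4-deleted and WT arrays did not overlap for 2 of 10 members, Id4 and Mrtfa, both lower in Wnt4-deleted cells, where 6.77% of all genes did not overlap. Id4 averaged 8.73 ± 0.39 in Wnt4-deleted and 9.31 ± 0.10 in WT CD24 low cells (SD, n = 3 each), a change of -0.58 (SE 0.30, 95% interval -1.25 to 0.09, adjusted p = 0.99982 in limma). Within the sets of arrays it was -0.06, -0.78 and -0.90. Mrtfa averaged 8.11 ± 0.29 and 8.37 ± 0.04, a change of -0.26 (SE 0.19, interval -0.67 to 0.15), or -0.10 without array 15. Trp63 changed by -0.20 (interval -0.83 to 0.42) and Snai2 by 0.24 (-0.34 to 0.82). Both moved with single arrays, as Trp63 was at -0.07 without array 11 and -0.31 without array 3, and Snai2 at 0.54 without array 11, 0.15 without array 3 and 0.03 without array 15. Zeb1 and Zeb2 were at 0.34 (-0.82 to 1.5) and 0.34 (-1.28 to 1.97), intervals that leave room for a doubling in either direction for Zeb2 and upward for Zeb1. The endothelial marker mean beside them was 6.40, 9.10 and 8.80 in Wnt4-deleted CD24 low cells, against 6.501, 7.96 and 8.71 in WT CD24 low cells. Snai1, Twist1, Twist2 and Myocd were at -0.07, 0.00, 0.11 and 0.19, with a wide interval for Snai1 (-1.07 to 0.92).

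In CD24 high cells 0 of 10 members had groups that did not overlap, against 7.00% of all genes. Trp63 averaged 6.54 ± 0.74 in Wnt4-deleted and 6.14 ± 0.09 in WT CD24 high cells (SD, n = 3 each), a change of 0.40 (SE 0.29, interval -0.23 to 1.02). Without array 4 it was 0.81, without array 12 it was 0.26 and without array 16 it was 0.12. Arrays 12 and 16 were above and array 4 was below all 3 WT arrays, and within the sets the change was -0.51, 0.77 and 0.92. Its target Krt5, named here after its values were seen, averaged 6.74 in Wnt4-deleted and 5.85 in WT CD24 high cells. That was a change of 0.89 (SE 0.21, adjusted p = 0.99997 in limma). The 18 measured p63 targets showed no common direction there, with 10 higher, 8 lower and a median change of 0.01. Id4 was at -0.36 (-1.03 to 0.31), or -0.03 without array 2, and Mrtfa at -0.23 (-0.64 to 0.18), or -0.02 without the same array. The other 7 members ranged from -0.13 (Twist2) to 0.13 (Twist1).

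The difference of the Wnt4 effects (CD24 low minus CD24 high) was tested directly. None of the 10 members passed in limma or had an unadjusted p under 0.05, where 0.00% of all genes passed and 273 had an unadjusted p under 0.05. Trp63 had the largest size, -0.60 (SE 0.40, interval -1.49 to 0.29, adjusted p = 0.99992 in limma), and Zeb1 followed with 0.39 (SE 0.75). The Trp63 difference was -1.02 without array 4 and -1.02 with array weights, both with an unadjusted p under 0.05, and -0.32 without array 16, and its adjusted p was at least 0.928 in every alternative. The remaining differences ran from -0.22 (Id4) to 0.36 (Zeb2). In the 6 gene lists above, 0 genes passed in either genotype comparison in limma. Of the 18 p63 targets, an unadjusted p under 0.05 was found for 1 (CD24 low cells) and 4 (CD24 high cells). Of all 19938 genes, 610 and 396 had one.

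**Figure D5:**
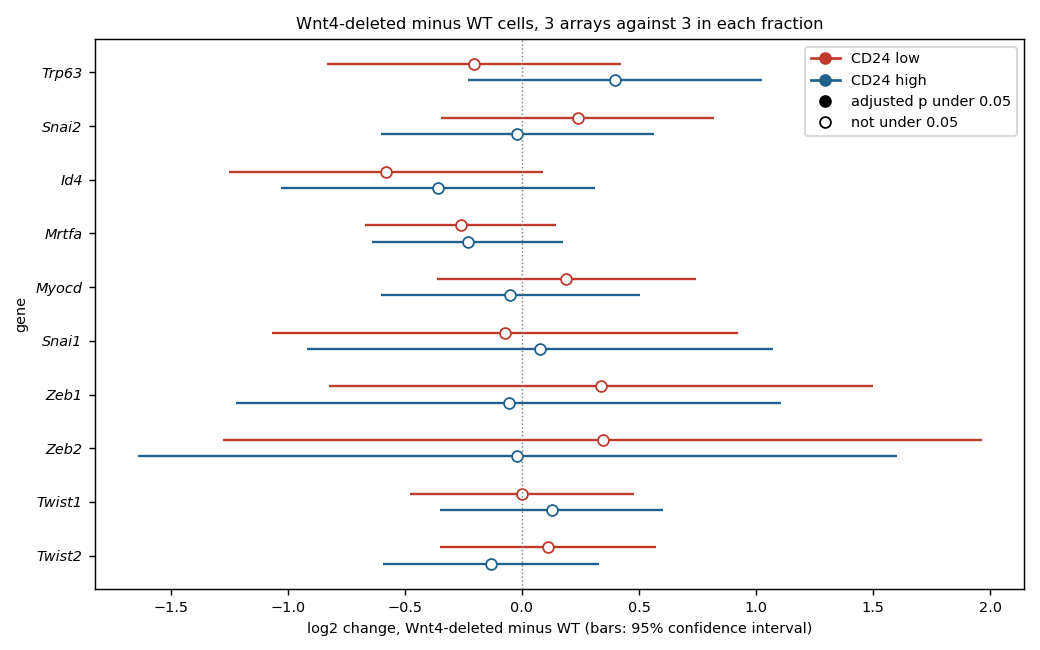
Log2 change of each regulator between Wnt4-deleted and WT cells (horizontal axis) in CD24 low (red) and CD24 high cells (blue), with 95% confidence intervals from limma (3 arrays against 3). All points are open, as none passed an adjusted p of 0.05, and each of the 20 intervals includes 0.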

How the data were processed

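RNA of 4 groups of 3 sorted samples was amplified (Ovation Pico WTA V2, FL-Ovation biotin) and hybridised to 12 Affymetrix mouse gene arrays, whose model is not given in the sources used here. The deposited log2 values, made by the authors with RMA in Affymetrix Expression Console 1.1.2800, were used as given. RMA shrinks differences of dim probesets. Of 35556 probesets, 21789 had 1 gene symbol in the platform annotation, 1621 had several and 12146 had no entry. Per gene the probeset with the highest mean over the 12 arrays was kept (19938 genes, 999 with several probesets).

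The 12 arrays were fitted together in limma 3.58.1 (R 4.3.3) by lmFit and then eBayes. Each group had its own mean, which left 8 residual degrees of freedom (11.047 after moderation). P-values are two-sided and were adjusted by Benjamini-Hochberg over all 19938 genes for every one of the 5 comparisons separately, and 0.05 was the threshold. The fit was tested on simulated data. No pair of arrays correlated above 0.9926, so none was taken as a duplicate. The members and gene lists were chosen with earlier results of these data known. All 10 members are named, with Wnt4, relatives, up to 4 list genes of largest change in the direction of the list, and the 5 genes most like each member by Pearson correlation. Krt5 in the Wnt4 comparison, Cdh1, Crb3 and Epcam and the list genes that did not pass were named after their values were seen. Alternatives varied the probeset rule, scaling, filter, prior, array weights, samples, block, covariate and threshold. Promoters and their E2-box counts came from RefSeq (GRCm38.p6).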

Additional observations from a re-analysis of the deposited data

How the results depend on the processing

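Trp63, Snai2 and Id4 kept direction and call in both fraction comparisons under all 27 alternatives. The count of members called, 5 in each genotype, was 3 in both with a threshold of 0.01, without arrays 9 to 12, without arrays 13 to 16, and with the endothelial or the fibroblast covariate, and 3 in Wnt4-deleted cells when only the 2 groups compared were fitted. Leaving out 1 array at a time gave 3 to 6 members called in Wnt4-deleted and 3 to 7 in WT cells. With the sets of title numbers as a replicate block, 7 and 7 members were called in Wnt4-deleted and WT cells with a fixed block, and 5 and 6 with a random block. The labels do not pair the arrays. The fixed block added Snai1 and Zeb2 in Wnt4-deleted cells and Snai1 and Zeb1 in WT cells, and the random block added Snai1 in WT cells. With the non-epithelial covariate 4 members were called in each genotype, of which Zeb2 was lower in CD24 low cells (adjusted p = 0.00145 in Wnt4-deleted and 0.00154 in WT cells). No genotype comparison called a member under any setting. A filter on the 40th percentile of mean level left Myocd, Twist1, Zeb1 and Zeb2 untested, and the difference of Wnt4 effects has no fit on 2 groups. The covariates other than the non-epithelial mean and the omission of sets were chosen after seeing the data. Directions that turned belonged to values not called in the fit reported, except Zeb1 in Wnt4-deleted cells. The turned values were themselves called only for Zeb2 with the non-epithelial covariate, and the cause was not tested. In the fraction change in WT cells, the turned values were Twist2 0.087 with array weights, Twist2 0.21 without arrays 1 to 4, Twist2 0.0395 without arrays 13 to 16, Zeb1 -0.39, Zeb2 -1.64, Myocd -0.42 with the non-epithelial covariate, Zeb1 -0.015, Zeb2 -0.37 with the endothelial covariate and Zeb2 -0.046, Myocd -0.0052 with the fibroblast covariate. Leaving out 1 array gave Twist2 -0.18 to 0.15. In the fraction change in Wnt4-deleted cells, the turned values were Snai1 -0.51, Twist1 -0.13, Twist2 -0.44, Zeb1 -0.51, Zeb2 -2.06, Myocd -0.40 with the non-epithelial covariate, Snai1 -0.28, Twist2 -0.071, Zeb2 -0.26 with the endothelial covariate and Twist2 -0.082 with the fibroblast covariate. In the Wnt4 change in CD24 low cells, the turned values were Snai1 0.19, Twist1 -0.032 without arrays 1 to 4, Snai1 0.025, Twist1 -0.11, Twist2 -0.0898 without arrays 13 to 16, Twist1 -0.12, Zeb1 -0.039, Zeb2 -0.23 with the non-epithelial covariate, Twist1 -0.038 with the endothelial covariate and Twist1 -0.028 with the fibroblast covariate. Leaving out 1 array gave Snai1 -0.50 to 0.53, Twist1 -0.14 to 0.25, Twist2 -0.019 to 0.33, Zeb1 -0.15 to 0.98, Zeb2 -0.44 to 1.13, Myocd -0.14 to 0.38. In the Wnt4 change in CD24 high cells, the turned values were Snai1 -0.12, Twist1 -0.092, Myocd 0.0027 without arrays 9 to 12, Snai2 0.0073, Zeb2 0.0068 with median centring, Snai2 0.024, Zeb1 0.013, Zeb2 0.042, Myocd 0.015 with a second quantile normalisation, Snai2 0.10 with array weights, Snai2 0.26, Twist2 0.024, Id4 0.095 without arrays 1 to 4, Snai2 0.071, Zeb1 0.11, Zeb2 0.017 without arrays 13 to 16, Zeb1 0.0796, Zeb2 0.19, Myocd 0.0078 with the non-epithelial covariate and Zeb1 0.045, Zeb2 0.16, Myocd 0.0026 with the fibroblast covariate. Leaving out 1 array gave Snai1 -0.10 to 0.21, Snai2 -0.23 to 0.12, Twist1 -0.0057 to 0.23, Twist2 -0.21 to 0.013, Zeb1 -0.31 to 0.088, Zeb2 -0.20 to 0.12, Myocd -0.11 to 0.015. In the difference of Wnt4 effects, the turned values were Snai2 -0.12 without arrays 1 to 4, Snai2 -0.0096, Mrtfa 0.19 without arrays 13 to 16, Twist1 0.23, Id4 0.38 without arrays 9 to 12, Zeb1 -0.12, Zeb2 -0.42 with the non-epithelial covariate and Mrtfa 0.028 with a second quantile normalisation. Leaving out 1 array gave Snai1 -0.58 to 0.45, Twist1 -0.27 to 0.12, Zeb1 -0.091 to 1.04, Zeb2 -0.42 to 1.15, Id4 -0.55 to 0.038, Myocd -0.089 to 0.43, Mrtfa -0.24 to 0.13. The number of arrays, 3 a group, limits the precision, and intervals of the Wnt4 change spanned more than 2 log2 units for Zeb1 and Zeb2.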
